A study of Mus musculus with 6 samples.

Results

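Dendritic cells steer T cells by the interleukins they secrete, and the genes described here encode the main ones: the subunits of the IL-12 family (Il12a, Il12b, Il23a, Il27 and Ebi3), Il6, Il10, Il15 and the IL-15 receptor alpha chain Il15ra. The 9 genes were chosen by symbol, not by their values, from the 23398 genes in the expression table, and all 9 were found there. Transcript levels were compared between mouse bone marrow derived dendritic cells (BMDC) that received Ca(OH)2 nanoparticles and BMDC that received vehicle, both for 12 hours. There were 3 RNA sequencing libraries of each, numbered 1 to 3 within a group. All cells were kept in DMEM with serum and antibiotics. The labels give no strain, sex, age, genotype, particle dose or added growth factor for either group, and they do not say whether the libraries of a group came from separate mice or cultures. The p-values therefore measure the spread between libraries, which may be technical.

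The cytokines of the IL-12 family are built from a pair of chains that are shared between cytokines. The p40 chain (Il12b) joins p35 (Il12a) to form IL-12, which drives T helper 1 differentiation, and joins p19 (Il23a) to form IL-23, which sustains T helper 17 cells. The chain encoded by Ebi3 joins p28 (Il27) to form IL-27 and p35 to form IL-35. IL-6 favours T helper 17 over regulatory T cell differentiation, IL-10 restrains dendritic cells and T cells, and IL-15 is held on the cell surface by its alpha chain and presented to memory CD8+ T cells and NK cells. Most of these cytokine genes are close to silent in resting dendritic cells and are switched on through NF-kappaB, C/EBP, AP-1 and interferon regulatory factors when pattern recognition receptors are engaged.

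Levels are FPKM, fragments per kilobase of gene length on a library scale set by the depositors, so that levels of different genes can be compared. The libraries held 17305391 to 21997564 reads, recovered from the FPKM, and 1 library stood apart. Across tested genes, the log2 levels of nanoparticle library 1 correlated with those of nanoparticle libraries 2 and 3 at 0.9423 and 0.9282, against 0.9895 between libraries 2 and 3 and 0.9926 to 0.9938 among the vehicle libraries (genes are not independent replicates). Changes were tested with limma on log2(FPKM + 1) over the 10682 genes that reached 1 FPKM in 3 or more libraries. The threshold was an adjusted p of 0.05 (Benjamini-Hochberg over all tested genes), which 33.2% of tested genes passed, 17.0% higher and 16.2% lower with nanoparticles. These counts, 1817 and 1733, became 3660 and 3263 without nanoparticle library 1 and fell to between 1114 and 1152 higher and between 1027 and 1074 lower without vehicle library 1, 2 or 3. The dendritic cell label was checked against markers. The integrin gene Itgax lay between 248 and 456 FPKM and the invariant chain gene Cd74 between 2270 and 5273 FPKM in every library, while Flt3, a receptor of conventional dendritic cells and their progenitors, had at most 8 reads. Of 13 tested markers of the list 5 fell with nanoparticles, 2 rose and 6 were not called. Those called are named here after their values were seen. Cd209a (5.69 to 0.0255 FPKM), Clec10a (6.92 to 0.786), Ciita (15.8 to 6.09), Zbtb46 (3.97 to 2.30) and Clec9a (6.59 to 3.08) fell. Ccr7 (2.29 to 112 FPKM) and Irf8 (8.68 to 21.2) rose. Cd209a passed the filter only through the vehicle libraries.

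The sequence just before a gene's transcription start is where several of these factors can bind. RefSeq promoter windows (build GRCm38.p6, 250 bases before to 50 bases after the start) were at hand for 5 of the 9 genes, Il6, Il12b, Il12a, Ebi3 and Il15ra, in 7 windows. One upstream stretch of each is shown, and no window was at hand for Il23a, Il27, Il10 and Il15. All are on the plus strand, written 5′ to 3′ and ending at the base before the start, and capitals mark a match to 1 of the 5 motifs searched.
Il6 chr5:30012864-30013113: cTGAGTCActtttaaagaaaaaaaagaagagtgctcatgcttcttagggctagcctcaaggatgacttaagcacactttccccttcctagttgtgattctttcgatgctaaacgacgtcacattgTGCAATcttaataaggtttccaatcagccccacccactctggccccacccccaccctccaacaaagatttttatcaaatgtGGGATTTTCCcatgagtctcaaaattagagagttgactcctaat
Il12b chr11:44399813-44400062: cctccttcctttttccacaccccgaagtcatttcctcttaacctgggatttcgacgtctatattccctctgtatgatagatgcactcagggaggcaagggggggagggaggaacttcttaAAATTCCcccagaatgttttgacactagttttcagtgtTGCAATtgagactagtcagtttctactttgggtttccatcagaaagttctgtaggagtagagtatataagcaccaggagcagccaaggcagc
Il12a chr3:68690394-68690643: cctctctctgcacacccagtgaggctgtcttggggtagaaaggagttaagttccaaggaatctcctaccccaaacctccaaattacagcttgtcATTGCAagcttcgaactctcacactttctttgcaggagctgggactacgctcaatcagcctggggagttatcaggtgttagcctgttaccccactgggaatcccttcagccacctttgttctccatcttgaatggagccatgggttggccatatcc
Ebi3 chr17:55952373-55952622: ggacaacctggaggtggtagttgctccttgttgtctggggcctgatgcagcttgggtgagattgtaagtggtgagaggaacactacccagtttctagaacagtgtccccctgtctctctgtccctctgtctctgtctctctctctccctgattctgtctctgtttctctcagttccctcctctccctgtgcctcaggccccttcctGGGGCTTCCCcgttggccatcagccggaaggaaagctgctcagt
Il15ra chr2:11705043-11705292: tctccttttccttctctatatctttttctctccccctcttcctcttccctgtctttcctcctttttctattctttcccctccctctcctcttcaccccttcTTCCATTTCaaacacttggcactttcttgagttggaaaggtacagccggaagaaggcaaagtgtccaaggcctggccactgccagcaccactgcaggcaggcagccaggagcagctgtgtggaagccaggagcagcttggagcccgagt

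Motifs were searched on both strands. They were the NF-kappaB consensus, the kappaB half-site GGANTTT, the C/EBP half-site TGCAAT, the AP-1 site TGANTCA and the IRF site GAAANNGAA. The Il6 stretch held an NF-kappaB consensus at positions -44 to -35 from the start, which overlaps a kappaB half-site at -43 to -37, with a C/EBP half-site at -125 to -120 and an AP-1 site at -249 to -243. The Ebi3 stretch held an NF-kappaB consensus at the same place, -44 to -35. In Il12b the matches were a kappaB half-site at -130 to -124, read on the minus strand, and a C/EBP half-site at -92 to -87. A single C/EBP half-site lay at -156 to -151 in Il12a and a single IRF site at -149 to -141 in Il15ra, both on the minus strand. The second windows of these genes, not printed, held further matches. That of Il12a had a kappaB half-site after the start, at 21 to 27, and that of Il15ra had a kappaB half-site at -197 to -191, an AP-1 site at -30 to -24, a C/EBP half-site at 5 to 10 and an IRF site at 31 to 39. Such short motifs are common: of 32817 windows of this length, 4.5% held the NF-kappaB consensus, 15% the kappaB half-site, 8.4% the C/EBP half-site, 7.81% the AP-1 site and 8.55% the IRF site. A match describes letters and not binding, which was not measured here.

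The IL-12 and IL-23 subunits went from a few reads or none to clear expression with nanoparticles, and the shared p40 chain far exceeded its partners. Il12b (chromosome 11, 44400063 to 44414033, plus strand; positions here and below are those of GENCODE M21 on GRCm38) was at 0.485, 0.615 and 0.268 FPKM in vehicle libraries 1 to 3, from 19, 24 and 11 reads. It was at 291, 224 and 149 FPKM in nanoparticle libraries 1 to 3. Every nanoparticle library lay more than 2 orders of magnitude above every vehicle library. The means were 0.456 ± 0.176 and 222 ± 71.0 FPKM (SD, n = 3 each), a 486-fold difference, and the log2 change was 7.21 (SE 0.251, limma adjusted p = 3.2e-05).

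Il12a (chromosome 3, 68690644 to 68698547, plus strand), the chain that decides whether p40 becomes IL-12, had 0 reads in all 3 vehicle libraries. With nanoparticles it was at 13.7, 7.78 and 8.30 FPKM, from 380, 219 and 272 reads, so that the highest library lay less than 2-fold above the lowest. A count of 0 allows up to 3 reads, which corresponds to 0.0873 FPKM on average over the vehicle libraries, and against this floor the mean of 9.92 ± 3.27 FPKM (SD, n = 3) was at least 114-fold higher. In the fit its log2 change was 3.41, with an SE of 0.204 (limma adjusted p = 0.00014). Il23a (chromosome 10, 128296139 to 128298752, minus strand), the chain particular to IL-23, had 2, 2 and 3 reads with vehicle and 238, 153 and 140 reads with nanoparticles, or 6.49, 4.11 and 3.23 FPKM. The groups did not overlap, and the ratio of reads pooled over each group and corrected for library scale was 88.2 (95% counting interval 42.5 to 220). In the fit it changed by 2.37 on the log2 scale, with an SE of 0.211 (limma adjusted p = 0.00051). Fitted changes of genes this low in vehicle depend on the 1 FPKM added before the logarithm and understate the difference. Intervals and floors cover counting error only.

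IL-27 differed in its starting point, since its Ebi3 chain was already expressed with vehicle. Ebi3 (chromosome 17, 55952640 to 55957022, plus strand) stood at 13.7, 15.3 and 15.4 FPKM in vehicle libraries and at 63.3, 47.4 and 37.3 FPKM in nanoparticle libraries. The lowest nanoparticle library was thus more than 2-fold above the highest vehicle library. The mean rose 3.33-fold, from 14.8 ± 0.930 to 49.3 ± 13.1 FPKM (SD, n = 3 each), by 1.64 on the log2 scale (SE 0.196, limma adjusted p = 0.0015). Il27 (chromosome 7, 126589010 to 126594941, minus strand), which encodes p28, was at 0.541, 0.889 and 0.657 FPKM with vehicle and at 34.9, 35.7 and 28.9 FPKM with nanoparticles. It was the most even of the 9 genes among the nanoparticle libraries, with a coefficient of variation of 11.2%, and the one in which library 1 was not the highest. The mean rose 47.6-fold, from 0.696 ± 0.178 to 33.1 ± 3.72 FPKM (SD, n = 3 each), or by 4.33 on the log2 scale (SE 0.130, limma adjusted p = 2.1e-05). The position of Il27 overlaps that of Apobr on the opposite strand, and that of Ebi3 overlaps the antisense gene Gm16712. Whether reads were counted by strand is not given in the sources used here, so reads from the shared bases cannot be told apart. Apobr lay between 26.0 and 30.3 FPKM in all 6 libraries and was not called (log2 change 0.13, limma adjusted p = 0.33). Gm16712 lay between 0.513 and 0.592 FPKM with vehicle and between 1.40 and 2.59 FPKM with nanoparticles, and was called higher (log2 change 1.01, limma adjusted p = 0.0061).

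Il6 (chromosome 5, 30013114 to 30019981, plus strand) reached the highest level of the 9 genes from one of the lowest starting points. The vehicle libraries held 0, 0 and 3 reads of it, and the nanoparticle libraries held 15184, 11653 and 12369 reads, which correspond to 383, 290.0 and 264 FPKM. The nanoparticle libraries lay within 1.45-fold of each other. The mean with nanoparticles was 312 ± 62.4 FPKM (SD, n = 3), and the pooled, scale-corrected read ratio of 15194 had a 95% counting interval of 5199 to 73680, wide because only 3 vehicle reads stand under it. The log2 change of 8.25 (SE 0.154, limma adjusted p = 5.8e-06) ranked 3 among the 10682 tested genes, and that of Il12b ranked 7.

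Il10, which encodes the cytokine that restrains the others, appeared at low and uneven levels. Il10 (chromosome 1, 131019845 to 131024974, plus strand) had 0 reads in each vehicle library and 298, 83 and 28 reads in nanoparticle libraries 1 to 3, or 13.9, 3.83 and 1.11 FPKM. The 95% counting intervals of these 3 libraries, 12.4 to 15.6, 3.05 to 4.75 and 0.737 to 1.60 FPKM, did not overlap, so they differed by more than counting error. The highest was 12.6-fold above the lowest. Among the 1817 genes called higher, the median of this ratio was 1.38, and 4 genes had a larger one. The mean of 6.29 ± 6.76 FPKM (SD, n = 3) was at least 55.5-fold above the floor of 3 reads per vehicle library, and at least 21.8-fold without nanoparticle library 1. Il10 passed the test narrowly, at a log2 change of 2.42 with an SE of 0.656 (limma adjusted p = 0.0323). Over the alternatives its adjusted p ran from 0.0039, without nanoparticle library 1, to 0.0965, without vehicle library 1, and it also missed the threshold without vehicle library 2 (0.0957), vehicle library 3 (0.0955) or nanoparticle library 2 (0.0821).

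Il15 and its alpha chain rose together and shared a pattern among libraries. Il15 (chromosome 8, 82331632 to 82403222, minus strand) was at 2.20, 1.87 and 1.80 FPKM with vehicle and at 28.4, 11.0 and 12.6 FPKM with nanoparticles. The mean rose 8.84-fold, from 1.96 ± 0.211 to 17.3 ± 9.61 FPKM (SD, n = 3 each), or by 2.51 on the log2 scale (SE 0.335, limma adjusted p = 0.0023). Il15ra (chromosome 2, 11705290 to 11734317, plus strand) was at 0.406, 0.374 and 0.409 FPKM with vehicle and at 11.0, 4.27 and 4.23 FPKM with nanoparticles. In both genes nanoparticle library 1 was more than 2-fold above libraries 2 and 3, which were close to each other, and no nanoparticle library reached down to the vehicle range. Il15ra rose 16.4-fold, from 0.397 ± 0.0194 to 6.50 ± 3.89 FPKM (SD, n = 3 each), or by 2.31 on the log2 scale (SE 0.327, limma adjusted p = 0.0029). Library 1 carried part of both values, and without it the differences were 6.02-fold for Il15 and 10.7-fold for Il15ra.

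**Figure D1:**
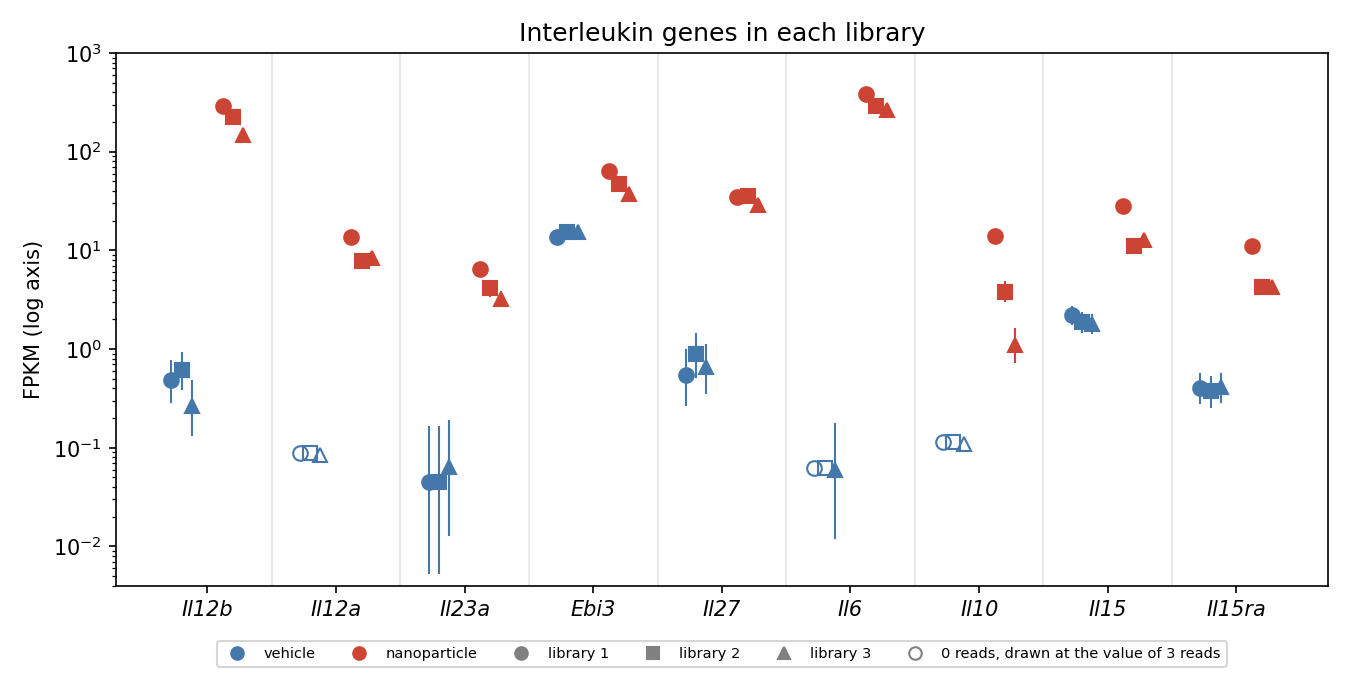
FPKM on a log axis of the 9 interleukin genes in the 3 vehicle (blue) and 3 nanoparticle (red) libraries, with 95% Poisson intervals of the reads as bars; open symbols stand for libraries with 0 reads and are drawn at the value of 3 reads. Every red point lies above every blue point of its gene, and the red points are spread most for Il10, from 1.11 to 13.9 FPKM.

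All 9 genes were thus called higher, and in all 9 every nanoparticle library exceeded every vehicle library, against 17.0% and 25.9% of tested genes (26.2% lay wholly below vehicle). Of the 9, 7 reached the filter of 1 FPKM only through the nanoparticle libraries, so that a difference was built into their passing it, and the count is a description. Ebi3 and Il15 were the exceptions, with at least 1 FPKM in all 6 libraries. RNA of whole cultures was measured, so more cells with a transcript and more transcript per cell cannot be told apart.

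**Figure D2:**
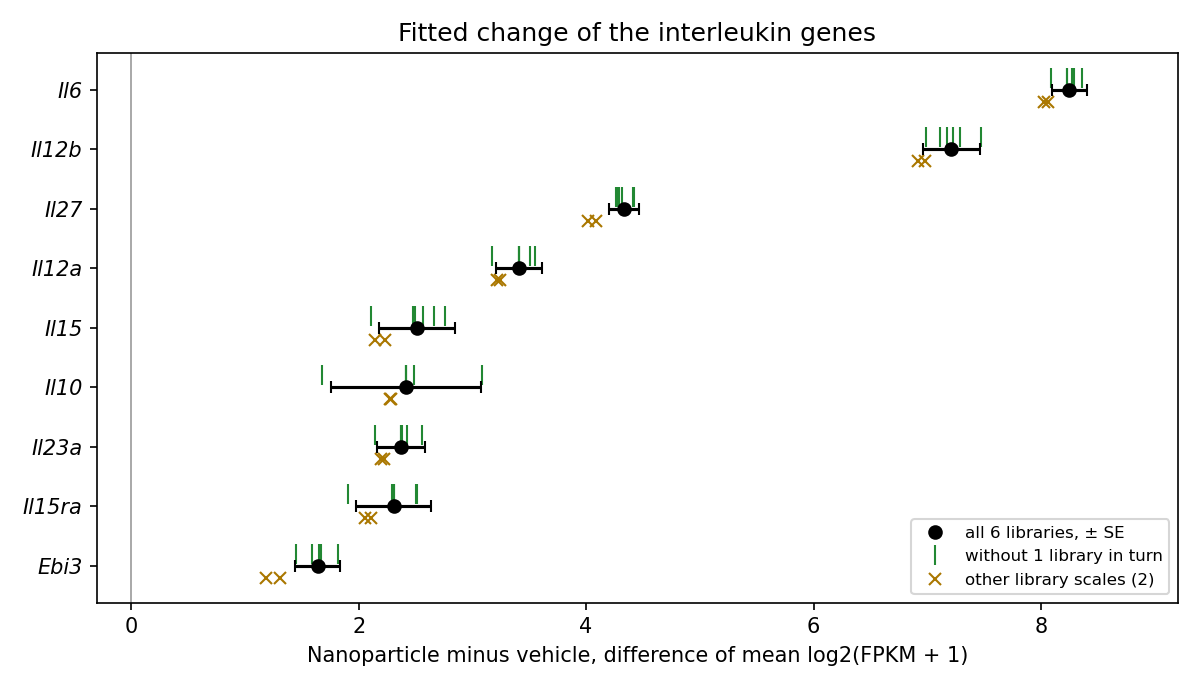
Fitted log2 change with nanoparticles of the 9 genes on the log2(FPKM + 1) scale, with bars of 1 SE (black), the values without 1 library in turn (green ticks) and the values under both other library scalings (brown crosses). The changes run from 1.64 for Ebi3 to 8.25 for Il6, and Il10 has the widest error, 0.656.

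Since a cytokine of this family needs both of its chains, levels of partner genes were compared within each library. The p40 gene Il12b exceeded Il12a by 21.3, 28.9 and 18.0-fold in nanoparticle libraries 1 to 3 and Il23a by 44.9, 54.6 and 46.2-fold. These ratios, with means of 22.7 ± 5.57 and 48.5 ± 5.26 (SD, n = 3), varied less than the level of Il12b itself between the highest and the lowest library, 1.95-fold. With vehicle too few reads of Il12a and Il23a were present to form a ratio. For IL-27 the order of the chains held but the excess shrank. Ebi3 exceeded Il27 by 25.4, 17.2 and 23.5-fold with vehicle and by 1.82, 1.33 and 1.29-fold with nanoparticles, with means of 22.0 ± 4.33 and 1.48 ± 0.292 (SD, n = 3 each). The ratio of Il15 to Il15ra fell from 5.41, 5.01 and 4.40 to 2.58, 2.57 and 2.98, with means of 4.94 ± 0.508 and 2.71 ± 0.236 (SD, n = 3 each). Transcript ratios do not give ratios of protein, which was not measured here.

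**Figure D3:**
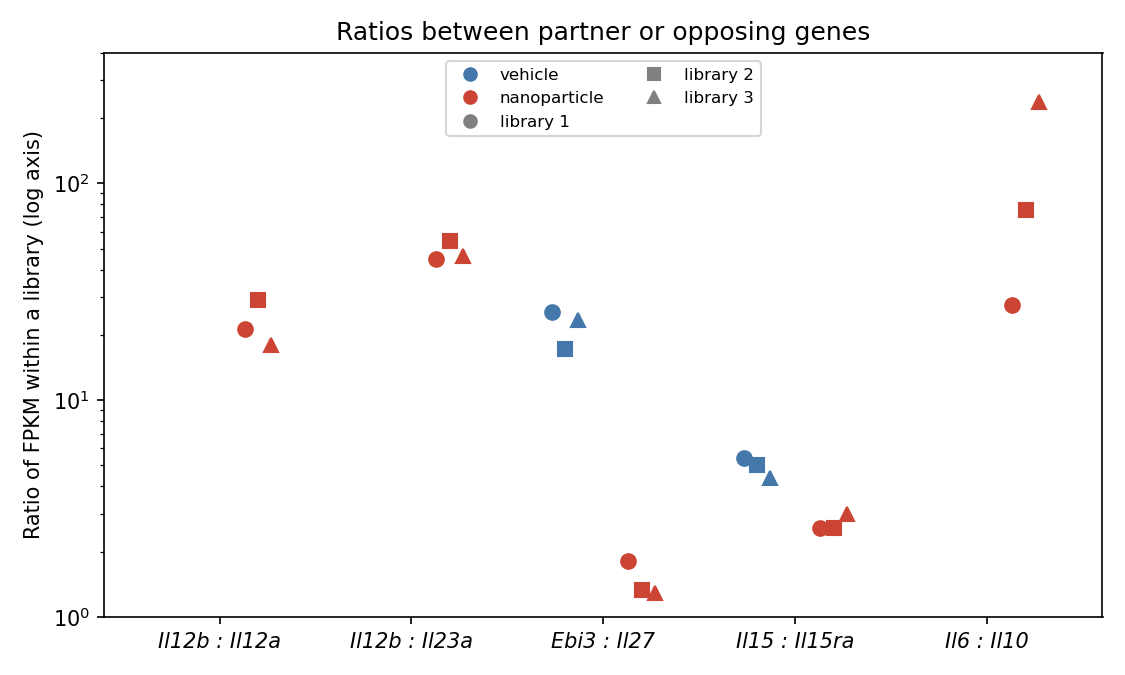
Ratio of FPKM between partner genes within each library, on a log axis, for vehicle (blue) and nanoparticle (red) libraries where both genes rest on more than 3 reads. Ebi3 to Il27 falls from between 17.2 and 25.4 to between 1.29 and 1.82, and Il6 to Il10 runs from 27.5 to 238 among the nanoparticle libraries.

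Differences between the changes of 6 gene pairs were tested on the log2(FPKM + 1) scale with a two-sided exact permutation test over the 6 libraries, which cannot give a p below 0.1. In 5 pairs the groups separated fully (exact permutation p = 0.1, Benjamini-Hochberg adjusted p = 0.12 over the 6 pairs), so none could pass a threshold of 0.05. The change of Il12b exceeded that of Il12a by 3.80, that of Il23a by 4.84 and that of Il10 by 4.80. These sizes depend on the added value, since Il12a and Il10 had no vehicle reads and Il23a few: with 0.1 FPKM added they were 2.04, 3.73 and 3.30, and with voom on recovered reads the log2 change of Il12a (9.36) was above that of Il12b (8.92). The change of Il6 exceeded that of Il10 by 5.83, and for Ebi3 minus Il27 the difference was -2.69 (6.03 and -3.70 with 0.1 FPKM added). For Il15 minus Il15ra the difference was 0.20 (exact permutation p = 0.2, adjusted p = 0.2). Its sign rests on the value added before the logarithm: it was -0.63 with 0.1 FPKM added and -0.10 with 0.5 FPKM added, and the plain ratio fell.

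The order of levels was steady at the top and not at the bottom. In all 3 nanoparticle libraries Il6 was the highest, followed by Il12b, Ebi3, Il27 and Il15. Over the libraries the ranges of Il6 and Il12b overlapped, those of Il12b, Ebi3, Il27 and Il15 did not, and those of the neighbours among Il15, Il12a, Il15ra, Il10 and Il23a did. Il10 was the gene that moved most in this order, from place 6 in library 1 to place 9 in libraries 2 and 3. With vehicle, Ebi3 and then Il15 were the highest in each library. Nanoparticle library 1 was the highest of its group for 8 of the 9 genes, compared with 54.9% of the 1817 genes called higher. Its level over the mean of libraries 2 and 3 was 5.64-fold for Il10, 2.59-fold for Il15ra, 2.41-fold for Il15, 1.77-fold for Il23a, 1.70-fold for Il12a, 1.56-fold for Il12b, 1.49-fold for Ebi3, 1.38-fold for Il6 and 1.08-fold for Il27. The ratio of Il6 to Il10 accordingly ran from 27.5 in library 1 through 75.8 in library 2 to 238 in library 3.

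**Figure D4:**
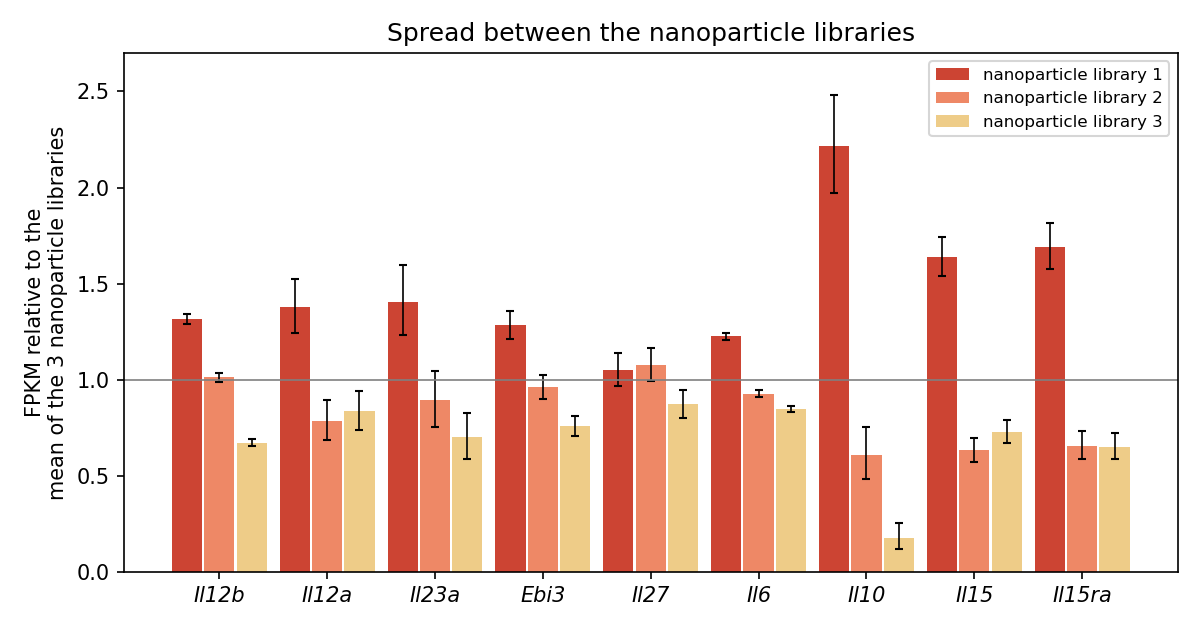
FPKM of each gene in nanoparticle libraries 1 to 3 as bars relative to the mean of the 3, with 95% Poisson intervals of the reads. Library 1 is the tallest bar except for Il27, and the 3 bars of Il10 stand for 13.9, 3.83 and 1.11 FPKM.

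Cytokine transcripts are also controlled by their decay, through AU-rich elements in the 3′ UTR that recruit proteins such as tristetraprolin. The pentamer ATTTA and the longer TATTTAT were counted in the 3′ UTR of the transcript with the longest coding sequence of each gene in GENCODE M21. Over 9517 tested genes with a 3′ UTR the median was 1.29 pentamers per kilobase, and 27.8% held at least 1 TATTTAT. Of the 9 interleukin genes, 7 held at least 1. The density was 17.5 pentamers per kilobase in Il27 (5 pentamers in 285 bases), 14.1 in Il6, 12.1 in Il12a, 9.13 in Il23a, 8.50 in Il10 and 7.53 in Il12b. Il15ra had 5.43 per kilobase. Ebi3 and Il15 had 1 pentamer and no TATTTAT each, in short 3′ UTRs of 245 and 282 bases. Their count equalled the median of 1 pentamer per tested gene. Their density, 4.08 and 3.55 per kilobase, lay above the median density because the 3′ UTRs are short. The longer element was found 5 times in Il12a and in Il23a, 4 times in Il27 and in Il10, and once in Il6, Il12b and Il15ra. Only the annotated sequence was read, and decay was not measured here.

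The genes whose pattern over the 6 libraries was most like that of a given interleukin were found by the smallest root mean square difference of log2(FPKM + 1), each gene taken relative to its vehicle mean. For Il6 the closest of all tested genes was Il1b (difference 0.142), which encodes IL-1 beta, at 7.45 to 8.74 FPKM with vehicle and 2681 to 2866 FPKM with nanoparticles. Next came the prostaglandin synthase gene Ptgs2 (0.479) and the chemokine gene Cxcl2 (0.558). For Il12b the closest were Il1a (0.240), which encodes IL-1 alpha, Acod1 (0.277), which encodes the enzyme that makes itaconate, and the ubiquitin-like interferon-induced gene Isg15 (0.292). The genes closest to Il15 were Timp1 (0.099), an inhibitor of matrix metalloproteinases, and the interferon-induced genes Trim30a (0.125) and Mx1 (0.134). In all of these library 1 was the highest, as for Il15, a likeness by which they were picked. Timp1, for example, was at 254 FPKM in library 1 and at 110 and 116 FPKM in libraries 2 and 3.

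The closest genes to Il10 were Igfbp7 (0.296), Fstl1 (0.308) and Tm4sf1 (0.318). Igfbp7, a secreted growth factor binding protein, was at 11.6, 4.05 and 2.45 FPKM in nanoparticle libraries 1 to 3, and Tm4sf1 at 20.8, 4.22 and 2.57 FPKM. Fstl1, a secreted glycoprotein, was already present with vehicle, at 1.83 to 1.92 FPKM, and was at 32.7, 9.19 and 7.56 FPKM with nanoparticles. As for Il10, library 1 was the highest and library 3 the lowest, a likeness by which these genes were picked.

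Of the 10 genes for receptor chains of these cytokines, 7 passed the filter, 3 rose and 2 fell (median log2 change 0.30). Over all tested genes the median was -0.0010, and 17.0% rose and 16.2% fell. Il2rg, the common gamma chain used by IL-15, rose from 42.3 ± 1.24 to 84.6 ± 2.60 FPKM (SD, n = 3 each, limma adjusted p = 0.00073). Both IL-10 receptor chains rose, Il10rb from 18.0 ± 0.686 to 31.2 ± 1.61 FPKM (limma adjusted p = 0.0017) and Il10ra from 21.3 ± 0.516 to 35.9 ± 2.14 FPKM (limma adjusted p = 0.0022, but 0.13 with libraries scaled to equal FPKM sums). The IL-6 receptor went the other way. Il6ra, which binds IL-6, fell from 2.26 ± 0.186 to 0.851 ± 0.206 FPKM (limma adjusted p = 0.0032), and Il6st, its signalling chain gp130 and the second of the genes that fell (named after its values were seen), fell from 11.7 ± 0.214 to 6.18 ± 1.29 FPKM (limma adjusted p = 0.0055).

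Il12rb2, the IL-12 receptor chain, was not called and spread over both sides of vehicle. It was at 2.09, 2.90 and 2.87 FPKM with vehicle and at 7.04, 1.99 and 0.492 FPKM in nanoparticle libraries 1 to 3, the same order of libraries as for Il10. Il27ra did not pass the test (1.51 and 2.07 FPKM). Il23r was under the filter, with 1, 0 and 0 reads with vehicle and 102, 64 and 39 with nanoparticles, as were Il12rb1 and Il2rb.

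Signals of these receptors run through JAK kinases and STAT factors. Of the 11 tested genes of this list 6 rose and 0 fell (median log2 change 0.78), beside 17.0% and 16.2% of all tested genes. With libraries scaled to equal FPKM sums 4 rose, and the calls of Jak2 (limma adjusted p = 0.0946) and Stat5b (0.2688) were lost. Stat4, the factor downstream of IL-12, went from 0.0857 to 3.31 FPKM (limma adjusted p = 0.00034), Stat5a, downstream of IL-15, from 5.25 to 20.7 FPKM (limma adjusted p = 0.00092) and Stat2 from 11.4 to 52.4 FPKM (limma adjusted p = 0.0025). Stat4 reached the filter of 1 FPKM only through the nanoparticle libraries, so a difference was built into its passing it. Stat3, through which IL-6 and IL-10 signal, was at 10.5, 10.2 and 10.6 FPKM with vehicle and 28.5, 14.5 and 14.2 FPKM with nanoparticles, and was not called (limma adjusted p = 0.0755, but 0.0008 without nanoparticle library 1).

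Of the SOCS proteins and phosphatases that restrain this pathway, 4 of 14 tested genes rose and 3 fell (median log2 change -0.10), beside 17.0% and 16.2% of all tested genes. The number that fell was 7 without nanoparticle library 1 and 1 without vehicle library 1, 2 or 3, and with libraries scaled to equal FPKM sums 2 rose and 7 fell. Socs3, which blocks gp130, rose from 39.2 ± 1.79 to 206 ± 54.7 FPKM (limma adjusted p = 0.00041) and Socs1, which blocks interferon and IL-12 signals, from 17.0 to 87.5 FPKM (limma adjusted p = 0.00038). Ptpn2, a phosphatase of JAK and STAT proteins, rose from 9.48 to 15.8 FPKM (limma adjusted p = 0.0030, but 0.151 with equal FPKM sums), and Socs6 fell from 13.8 to 4.25 FPKM (limma adjusted p = 0.0013).

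**Figure D5:**
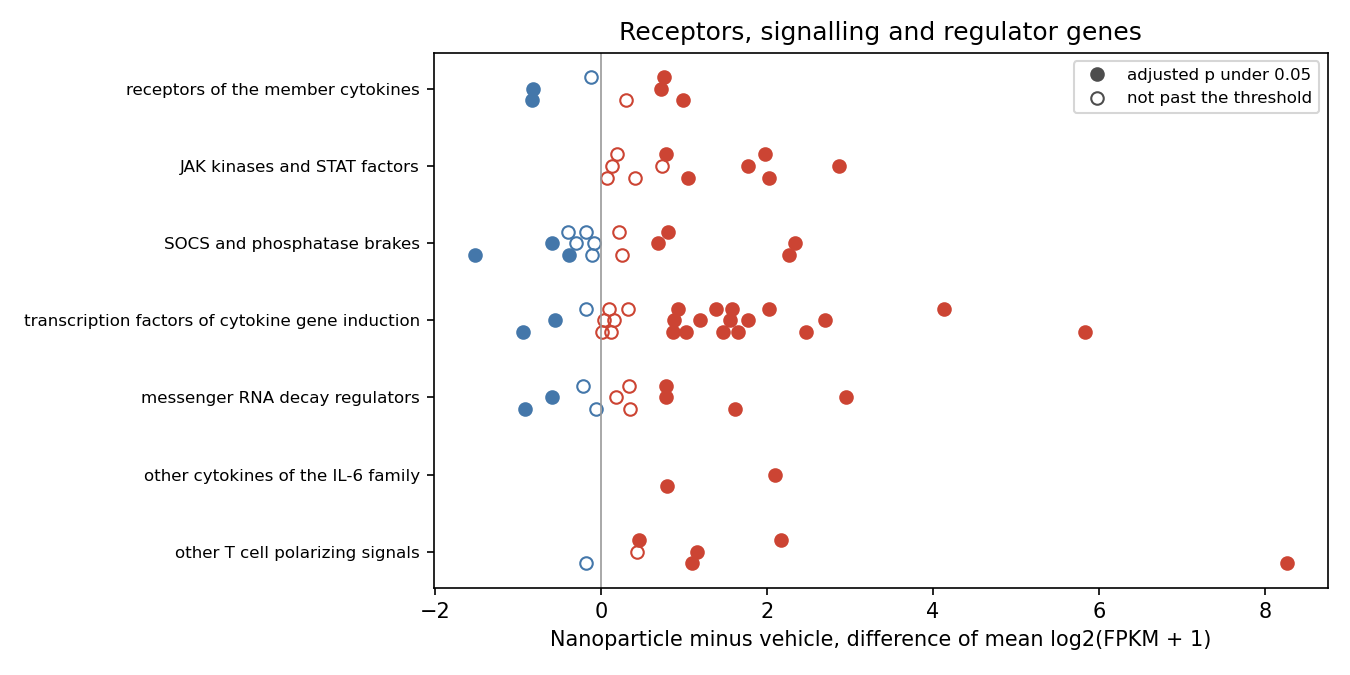
Fitted log2 change of each tested gene of the pathway lists on the log2(FPKM + 1) scale, red above and blue below 0, filled where called at an adjusted p under 0.05 and open where not. Changes reach 8.26 among the other T cell polarizing signals and 5.83 among the transcription factors, and stay within 0.98 among the receptors.

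Of the transcription factors that induce cytokine genes, 16 of 25 tested genes rose and 2 fell (median log2 change 1.03), beside 17.0% and 16.2% of all tested genes. Irf1, a factor of the Il12a, Il27 and Il15 promoters, rose from 5.58 ± 0.0736 to 35.4 ± 2.75 FPKM (limma adjusted p = 3.9e-05). Nfkbiz, a nuclear cofactor for Il6 and Il12b, rose from 0.453 ± 0.0324 to 25.1 ± 6.60 FPKM (limma adjusted p = 7.1e-05). It reached the filter of 1 FPKM only through the nanoparticle libraries, so a difference was built into its passing it. The NF-kappaB genes Nfkb2 (20.6 to 141 FPKM, limma adjusted p = 0.00014) and Bcl3 (4.87 to 19.0 FPKM, limma adjusted p = 0.00018) followed by the same rule. The pair that fell, named after its values were seen, was Fos, an AP-1 component, from 15.8 to 7.70 FPKM (limma adjusted p = 0.0019), and Maf, an activator of Il10, from 1.90 to 0.972 FPKM (limma adjusted p = 0.0122). With equal FPKM sums 13 rose and 5 fell, and the number that fell was 1 without vehicle library 1.

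Among the 11 regulators of messenger RNA decay, 4 rose and 2 fell (median log2 change 0.33), beside 17.0% and 16.2% of all tested genes. The number that rose was 7 without nanoparticle library 1, and the number that fell was 1 without vehicle library 1, 2 or 3. Zc3h12a, the nuclease regnase-1 that cleaves Il6 and Il12b transcripts, rose from 9.63 ± 1.07 to 81.7 ± 11.9 FPKM (limma adjusted p = 8.4e-05), and its relative Zc3h12c from 4.21 to 15.1 FPKM (limma adjusted p = 0.00041). Arid5a, which protects Il6 transcripts from that nuclease, rose from 0.781 to 2.07 FPKM (limma adjusted p = 0.0020). It too reached the filter of 1 FPKM only through the nanoparticle libraries, so a difference was built into its passing it. Zfp36l2, a relative of tristetraprolin, fell from 149 ± 4.08 to 78.6 ± 0.381 FPKM (limma adjusted p = 0.0011). The tristetraprolin gene Zfp36 itself, named after its values were seen, rose from 32.0 to 56.7 FPKM (limma adjusted p = 0.0185), a call that was lost with libraries scaled to equal FPKM sums (0.2934) or to read totals (0.1045).

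Few related cytokines outside the 9 genes reached the filter. The counts below stand beside 17.0% of all tested genes that rose and 16.2% that fell. In the IL-6 family 2 of 8 genes passed the filter and both rose, Osm from 7.24 to 35.9 FPKM (limma adjusted p = 0.0016) and Clcf1 from 4.65 to 9.05 FPKM (limma adjusted p = 0.0265). The call of Clcf1 was lost with libraries scaled to equal FPKM sums (0.2414) or to read totals (0.102), and 1 gene of the family was called without vehicle library 1, 2 or 3 or nanoparticle library 2. Lif was under the filter at 4, 15 and 7 reads with vehicle and 263, 142 and 70 with nanoparticles. Of the other genes of the IL-10 family (6 listed) and of the common gamma chain cytokines (5 listed), 0 passed the filter. Among 18 further T cell polarizing signals, 7 were tested, 5 rose and 0 fell (median log2 change 1.10), and 3 rose without vehicle library 1, 2 or 3 or nanoparticle library 2. With equal FPKM sums or read totals 3 rose and 1 fell. Il1b went from 8.10 ± 0.646 to 2787 ± 95.5 FPKM (limma adjusted p = 2e-06). The Notch ligand gene Jag1 rose from 6.05 to 14.7 FPKM (limma adjusted p = 0.00041) and Tnfsf4, which encodes OX40 ligand, from 18.5 to 40.9 FPKM (limma adjusted p = 0.0015). Il33 was at 40.7, 7.83 and 6.65 FPKM with nanoparticles against 2.07 to 2.24 FPKM with vehicle (limma adjusted p = 0.0403, but 0.0669 with equal FPKM sums), again with library 1 far above the others.

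Markers of other cells that such cultures can hold were summed per library. The counts of called markers stand beside 17.0% higher and 16.2% lower of all tested genes. The 13 macrophage markers summed to 1176 to 1346 FPKM with vehicle and 1068 to 1291 FPKM with nanoparticles, with 3 of 12 tested genes higher and 5 lower, and the 15 neutrophil markers to 276 to 309 and 247 to 344 FPKM, with 3 of 6 tested genes higher and 1 lower. The 15 dendritic cell markers summed to 6173 to 6618 FPKM with vehicle and 3563 to 7890 FPKM with nanoparticles, with 2 of 13 tested genes higher and 5 lower. Nanoparticle library 1, the highest for 8 of the 9 interleukin genes, gave the low end, with Cd74 at 2270 FPKM against 4790 and 5273 FPKM in libraries 2 and 3 and the MHC class II gene H2-Ab1 at 494 against 1060 and 1162 FPKM. Macrophage markers, named after their values were seen, went both ways in library 1. Adgre1 was at 276 FPKM there and at 141 and 132 FPKM in libraries 2 and 3, and Cd68 at 589 against 434 and 426 FPKM. Mrc1 was at 3.11 against 10.6 and 9.57 FPKM, C1qb at 64.9 against 93.6 and 124 FPKM and Csf1r at 133 against 175 and 174 FPKM. Mast cell and basophil markers (10 genes) summed to 3.93 to 6.16 FPKM with vehicle and 10.3 to 26.1 FPKM with nanoparticles, with 1 of 4 tested genes higher and 1 lower. The one that rose, Hdc, the histidine decarboxylase gene (0.338 to 12.5 FPKM), is also expressed by other myeloid cells. Hdc reached the filter of 1 FPKM only through the nanoparticle libraries, so a difference was built into its passing it. Other mast cell and basophil genes of the list, named after their values were seen, were expressed at low levels. Gata2, the one that fell, went from 2.88 to 1.31 FPKM, and Kit (1.28 and 0.852 FPKM) and Cpa3 (0.653 and 1.01 FPKM) were not called. The mast cell and basophil genes Ms4a2, Tpsb2, Mcpt8 and Prss34 and the neutrophil genes Elane, Mpo and Ly6g were at 0 or at most 0.307 FPKM in every library. Other neutrophil markers, named after their values were seen, rose: Lcn2 from 0.234 to 50.4 FPKM, S100a8 from 34.9 to 83.1 FPKM and Csf3r from 0.586 to 4.21 FPKM. Of these, Lcn2 and Csf3r reached the filter of 1 FPKM only through the nanoparticle libraries, so a difference was built into their passing it. The neutrophil sum was carried mostly by Mmp8, which fell from 245 to 130.0 FPKM. Mmp9 and S100a9, also named after their values were seen, were not called. In nanoparticle libraries 1 to 3 Mmp9 was at 9.33, 39.5 and 34.5 FPKM and S100a9 at 0.352, 13.2 and 10.2 FPKM. Lcn2 (52.3, 46.4 and 52.5 FPKM) and Csf3r (4.90, 3.85 and 3.87 FPKM) were not lowest in library 1. Cxcr2, under the filter, went from 0.653 to 0.0530 FPKM. T cell markers stayed at or under 1.94 FPKM in sum, B cell markers at or under 2.43 FPKM and NK cell markers at or under 0.0803 FPKM in every library, with the NK cell receptor gene Ncr1 at 0 in 5 of the 6. The part of the dendritic cell, macrophage, neutrophil and mast cell markers in the interleukin levels was not tested.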

How the data were processed

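The authors deposited gene-level values for all 6 libraries in 2 tables, identical in all 140388 values. No header or label names their unit. The deposited values were taken to be FPKM, because multiplying them by GENCODE M21 merged exon length and 1 scale per library gave whole reads (within 0.01) for 95.8% to 96.1% of values above 0. Annotated lengths were matched for 23388 genes and not for 10. The scales followed median-of-ratios size factors over 13983 genes within 0.0107%, so the values assume that most genes do not change. Nanoparticle libraries held 1.091 to 1.142 reads per unit of scale and vehicle libraries 0.873 to 0.889. The submitters' processing notes name CASAVA, STAR 2.5, HTSeq, edgeR 3.16.5, DESeq2 2 and the builds hg19 and mm10, with no roles; strand, read length and annotation are not given in the sources used here. Per the labels' protocols, libraries were made from total RNA with a NEBNext Ultra II RNA kit.

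Groups came from the treatment labels and replicate numbers from the titles. limma 3.58.1 (R 4.3.3) was fitted with group as the only term and a mean-variance trend (prior 2.33 degrees of freedom) to log2(FPKM + 1) of genes that reached 1 FPKM in 3 or more libraries. It was tested on simulated data. Ratios and exact permutation tests used Python 3.11.15, numpy 2.4.6, pandas 2.3.3 and scipy 1.17.1, with figures from matplotlib 3.10.9. Counting intervals of levels are exact Poisson intervals of recovered reads, and 3 reads served as the floor. Those of pooled read ratios are exact binomial (Clopper-Pearson) intervals given the total of the reads. Alternatives were other added values, filters and scalings, limma without trend, voom on recovered reads, a replicate block and leaving out each library.

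The 9 genes, the pathway lists (receptors, JAK and STAT, SOCS and phosphatases, transcription factors, decay regulators, IL-6 and IL-10 families, common gamma chain cytokines, other polarizing signals) and the marker lists were chosen with earlier results of these data known. Up to 4 genes per pathway list were named, those past the threshold with groups that do not overlap and the smallest adjusted p, plus exceptions stated in the text, and 3 genes most alike for each of Il6, Il12b, Il10 and Il15. Of the genes this rule gave, 1 is not reported here.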

Additional observations from a re-analysis of the deposited data

How the results depend on the processing

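For the 8 genes other than Il10, all 118 values under the alternatives kept their direction and stayed past the threshold. Il10 did not: its adjusted p was 0.0792 without a filter (log2 change 2.42) and 0.057 with voom on recovered reads (log2 change 7.63). Leaving out 1 library gave Il10 log2 changes from 1.67 to 3.09, and the call was lost in 4 of these 6 cases, where fewer samples were fitted. The counts of tested genes moved with the scaling: 881 higher and 4306 lower with equal FPKM sums, 1109 higher and 3612 lower with recovered read totals, where the median log2 change of all genes was -0.38 and -0.28. Of the genes called, 51.2% were higher in the reported fit, 17% and 23.5% under these scalings and 60.2% with a filter of 5 FPKM, which left 975 lower and no value for Il10, Il15ra and Il23a. Leaving out 1 library gave 1114 to 3660 higher and 1027 to 3263 lower. The difference between the changes of Il15 and Il15ra was -0.63 and -0.10 with 0.1 and 0.5 FPKM added. Of 270 counts over the pathway lists, 239 stayed within 1.5 times. These include the IL-10 family and common gamma chain lists, with 0 tested genes each, whose counts could not move in any setting that kept the filter. Other causes were not tested. The replicate numbers pair no samples as far as the labels say, and deviations of same-numbered libraries correlated at 0.065, 0.113 and -0.058. A fit with the replicate block gave 1451 higher and 1334 lower genes, and all 9 genes were still called (Il10 adjusted p 0.031). Depth limits the vehicle levels of Il12a, Il10, Il6 and Il23a, at 3 reads or fewer per library.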
